A study of Mus musculus with 454 samples.

Results

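Vagal sensory neurons picked by hand from nodose ganglia of wild-type C57BL/6 mice were compared between 2 sets of target codes, which the header of the authors' read table gives for each cell together with its mouse. The Gast set held 105 cells from 8 mice, with 60 cells from 5 mice under GastG and 45 cells from 3 mice under GastP. The Int set held 169 cells from 13 mice, with 45 cells from 4 mice under IntP, 45 cells from 3 mice under IntM, 35 cells from 3 mice under IntD and 44 cells from 3 mice under IntL. These 274 cells were chosen by code and by a minimum of 2000 genes above 0 reads, out of 452 picked cells and 454 samples in all, and every Gast and Int cell passed. An IntM cell of mouse Retro26 passed narrowly, with 3934 reads and 2025 genes. The age labels of the nodose ganglion samples read 6 weeks and 8 to 12 weeks after birth, and the part of age in the differences was not tested. The mice carried no stated transgene or treatment, and each picked cell was lysed into its own Smart-seq2 library. The sources used here do not spell out the codes or say how a cell came by its code, so the codes are used as written. Another 120 Port cells from 8 mice entered the fit only to share the estimate of spread.

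Sensory neurons of the vagus nerve have their cell bodies in the nodose and jugular ganglia and send an axon branch to the viscera and another to the brainstem. Endings in the stomach wall and in the intestine report stretch, nutrients and gut hormones, and the neurons differ in peptides, channels and receptors. Genes for axon guidance, cell adhesion and synapse assembly are known for wiring during development, and many stay on in mature neurons.

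Values are the mean over the cells of a mouse of log2(CPM + 1), CPM being reads scaled to a common library total, and each difference is Gast minus Int on that scale ± its standard error. A gene was called at an adjusted p under 0.05 (limma with Benjamini-Hochberg adjustment over 12693 genes). Median reads per cell averaged 1617000 ± 490000 over the Gast mice and 1477000 ± 261000 over the Int mice (SD, n = 8 and n = 13), and an exact two-sided permutation test found no difference in reads (p = 0.4) or in genes per cell (p = 0.487). The neuronal genes Snap25, Tubb3, Uchl1 and Slc17a6 had 10 or more reads in at least 99.4% of the cells of either set, and Rbfox3, the other neuronal marker, in 94.3% of Gast cells and 87.6% of Int cells, with a higher level in Gast cells (0.90, adjusted p = 0.0053). The jugular marker Prdm12 had 10 reads in 1.9% of Gast cells and 0.6% of Int cells, while 3 of 4 tested jugular markers were higher in Gast cells, Prrxl1 and Runx1 among them. The summed CPM of the 5 jugular markers ranged from 93.0 to 360.0 in Gast mice and from 2.53 to 84.3 in Int mice. Of 5 tested nodose markers 3 were lower in Gast cells (P2rx2, Htr3a and Tbx3). Of the 7 satellite glia markers 0 were called by limma, by edgeR or by DESeq2, and 0 had an unadjusted p under 0.05. Of the 6 Schwann cell markers 0 were called by limma, with 1 at an unadjusted p under 0.05, and 1 by edgeR and by DESeq2. Fabp7, a lipid-binding protein of satellite glia, had 10 reads in 37.1% of Gast cells and 42.6% of Int cells, and in the lists of blood and vessel cells 2 genes were called. The haemoglobin gene Hba-a1 was higher in Gast cells (0.68, adjusted p = 0.0026), with 10 reads in 15.2% of Gast cells and 0.6% of Int cells, and the endothelial gene Egfl7 was higher (0.78, adjusted p = 0.001), in 99.0% of Gast cells and 94.7% of Int cells. The other tested gene of each list, Hba-a2 and Flt1, was not called, and 0% of the cells of either set held 10 reads of the globin genes Hbb-bs and Hbb-bt. The summed CPM of the 5 red blood cell markers ranged from 4.97 to 17.8 in Gast mice and from 0.942 to 9.32 in Int mice. That of the 5 endothelial markers ranged from 52.1 to 99.7 in Gast mice and from 33.0 to 61.8 in Int mice, and the part of RNA from neighbouring cells was not tested. The Gast mice carry the numbers 7 to 10 and 41 to 44 and the Int mice numbers between 11 and 39. The sets thus fall in separate blocks of mouse numbers, and differences between blocks cannot be told apart from set. A steady trend with mouse number was not tested.

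The types of neuron differed between the sets. Each picked cell was matched to the most similar of 28 clusters of the droplet library of the same series. A median of 42.2% of a Gast mouse's cells (range 22.2% to 58.3%) matched the cluster led by Sst, against 0% of an Int mouse's cells (range 0% to 18.8%). A median of 0% of a Gast mouse's cells (range 0% to 15.4%) matched the cluster led by Gpr65, against 42.9% of an Int mouse's cells (range 16.7% to 100%). A cluster led by Dcdc2a, Ifi27l2a and Dbh had a median share of 10.1% in Gast mice and 15.4% in Int mice, and reached 83.3% in 1 Int mouse. The differences below are therefore between whole sets of cells, and for part of the genes they are given again at the end with matched type taken into account.

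**Figure D1:**
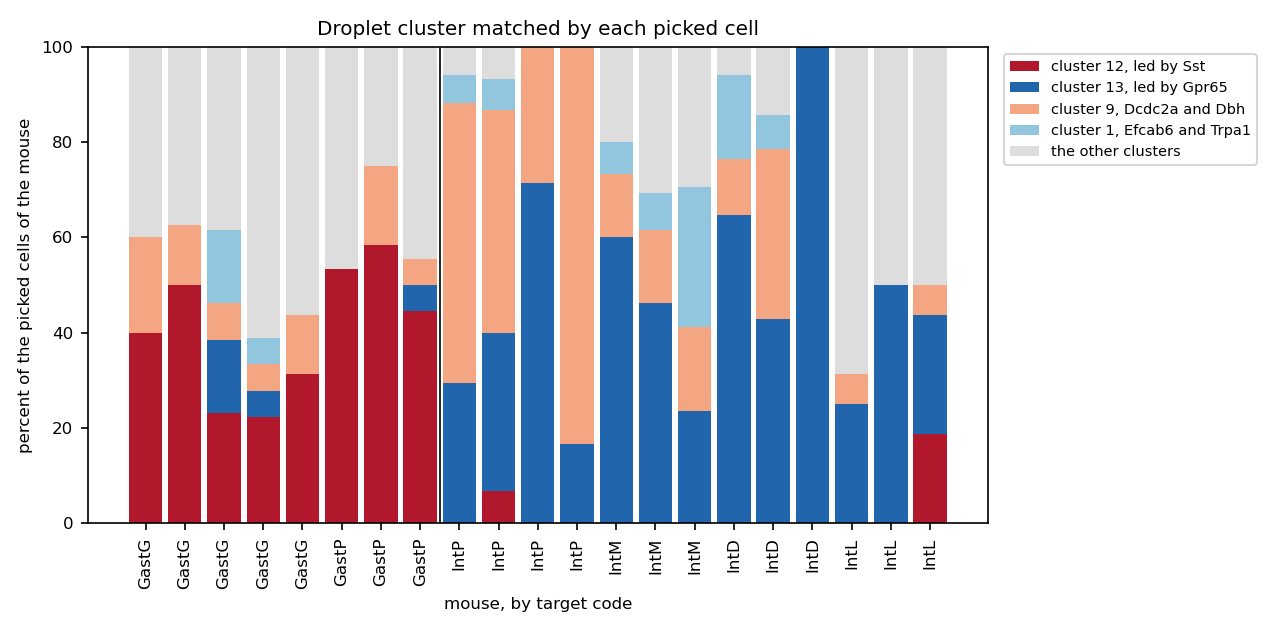
Percent of the picked cells of each mouse (y axis) that matched each droplet cluster, with 1 bar per mouse ordered by target code, the 8 Gast mice left of the line and the 13 Int mice right of it. The Sst-led cluster held 22.2% to 58.3% of the cells of each Gast mouse and at most 18.8% in an Int mouse, and the Gpr65-led cluster held at least 16.7% of the cells of each Int mouse.

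Of the 12693 genes, 1148 (9.04%) were higher in Gast cells and 726 (5.72%) were lower, so 61.3% of the calls were higher. With TMM scaling of reads summed per mouse, 888 were higher and 902 lower, so 49.6% of the calls were higher, while all 1874 genes called in the fit of mouse means kept their sign. For 41 genes (0.323%) every Gast mouse lay above every Int mouse, and for another 41 (0.323%) every Gast mouse lay below. The median difference over all genes was 0.07. Of the higher genes, 444 had 10 reads in at least 90% of the cells of the median mouse on both sides, and these differed by a median of 0.42, whereas the other 704 differed by a median of 0.91. Among the lower genes 319 were as widespread, with a median difference of 0.43 in size, and the other 407 had 0.95.

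Called genes showed an order of the codes. For 878 of the 1148 higher genes (76.5%) the GastP mean lay above the GastG mean, and for 573 of the 726 lower genes (78.9%) the GastG mean lay above the GastP mean, so GastP mostly stood farther from Int. Among the Int codes, IntL came nearest to Gast for 600 of the higher genes (52.3%) and 403 of the lower genes (55.5%). IntD came nearest for 82 (7.1%) and 69 (9.5%). These orders describe the called genes, were not counted over all genes and were not tested. The contrast that chose the called genes gave the 3 GastP mice the same weight as the 5 GastG mice.

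Lgi1, a secreted ligand of ADAM22-family proteins at synapses and along axons, and S100a6, a calcium-binding EF-hand protein, led the genes that were higher. Cacna1e, the pore subunit of R-type calcium channels, and Nnat, a small membrane protein of the endoplasmic reticulum made from an imprinted gene, were among those lowest in Gast cells. The 250 bases before the annotated start of each, from RefSeq on GRCm38.p6, are shown because these 4 genes open the accounts that follow. Capitals mark the matches found on either strand to 6 motifs, of which the GC box matches of Lgi1 overlap one another, namely the TATA box TATAAA, the CAAT box CCAAT, the GC box GGGCGG, the cAMP response element TGACGTCA, the AP-1 motif TGANTCA and the octamer motif ATGCAAAT. They are given in the order Lgi1 (chr19:38264437-38264686, plus strand), S100a6 (chr3:90612644-90612893, plus strand), Cacna1e (chr1:154725921-154726170, minus strand) and Nnat (chr2:157559828-157560077, plus strand). The Cacna1e window stands before a start that lies inside the span of the gene, which also has transcripts from starts farther upstream.
Lgi1: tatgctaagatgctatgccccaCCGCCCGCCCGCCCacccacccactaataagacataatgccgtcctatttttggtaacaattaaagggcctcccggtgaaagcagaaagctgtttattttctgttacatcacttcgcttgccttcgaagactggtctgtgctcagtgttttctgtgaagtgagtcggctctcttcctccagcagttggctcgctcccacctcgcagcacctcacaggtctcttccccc
S100a6: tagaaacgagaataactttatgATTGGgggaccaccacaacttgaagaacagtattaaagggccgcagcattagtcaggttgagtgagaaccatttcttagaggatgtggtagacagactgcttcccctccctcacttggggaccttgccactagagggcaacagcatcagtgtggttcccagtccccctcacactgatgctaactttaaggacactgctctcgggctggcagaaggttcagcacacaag
Cacna1e: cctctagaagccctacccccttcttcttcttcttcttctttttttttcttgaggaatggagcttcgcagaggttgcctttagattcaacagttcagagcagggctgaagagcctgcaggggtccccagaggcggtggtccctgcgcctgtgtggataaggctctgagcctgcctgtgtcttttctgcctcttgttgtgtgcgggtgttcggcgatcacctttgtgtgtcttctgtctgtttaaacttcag
Nnat: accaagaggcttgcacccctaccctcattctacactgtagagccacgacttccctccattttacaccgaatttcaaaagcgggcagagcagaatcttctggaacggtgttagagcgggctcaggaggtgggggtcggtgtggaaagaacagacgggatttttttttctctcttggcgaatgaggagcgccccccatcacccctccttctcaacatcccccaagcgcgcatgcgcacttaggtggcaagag
GGGCGG was in 61.4% of 841 windows of higher genes, 56.5% of 538 windows of lower genes and 60.5% of 9583 windows of all tested genes with a table entry. CCAAT was in 36.6%, 33.3% and 36.3% of the same windows, and TGANTCA in 3.9%, 4.5% and 3.9%. ATGCAAAT was in 0.8% of the windows of higher genes, 2.0% of those of lower genes and 1.2% of all. None of these shares was tested.

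Axon guidance genes were called in both directions. Of 51 tested 17 were higher in Gast cells and 8 lower (33.3% and 15.7%, against 9.04% and 5.72% of all genes), with a median difference of 0.32, and with TMM scaling, edgeR or DESeq2 4 were lower. Epha5, a receptor for ephrins, had 3.38, 4.75 and 6.02 in the lowest, median and highest Gast mouse and 0.70, 1.67 and 3.40 in the Int mice, a difference of 3.05 ± 0.24 (adjusted p = 1.5e-09). The highest Int mouse was an IntL mouse at 3.40, just above the lowest Gast mouse. Sema3f, a secreted repellent that acts through neuropilin 2, had 1.44, 2.35 and 4.19 in Gast mice and 0.00, 0.44 and 1.26 in Int mice, with no overlap (2.30 ± 0.21, adjusted p = 2.9e-08). Nrp2, which encodes neuropilin 2, was lower in Gast cells by contrast, at 1.36, 3.26 and 4.79 in Gast mice and 3.86, 5.19 and 7.04 in Int mice (-2.10 ± 0.31, adjusted p = 1.8e-05), although with TMM scaling its adjusted p was 0.12. Unc5b, a netrin receptor, was also lower (-1.27 ± 0.27, adjusted p = 0.0011; 0.15 with TMM scaling). Counted after their values were seen, 7 of 14 tested semaphorins were higher and 2 lower, and Slit1 (2.02) and Plxnd1 (1.65) were higher too.

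Synapse organisers and LGI proteins, which hold the membranes of a synapse together, gave 11 higher and 3 lower of 45 (median 0.30). These are 24.4% and 6.7%, against 9.04% and 5.72% of all genes. Lgi1 had 3.43, 5.61 and 6.67 in Gast mice and 0.37, 1.26 and 2.94 in Int mice, and every Gast mouse lay above every Int mouse (4.08 ± 0.32, adjusted p = 1.5e-09). A median of 84.4% of a Gast mouse's cells held 10 reads of it, against 17.6% of an Int mouse's cells, so both the share of cells and the mean moved. Adam11, whose product is a membrane protein of the ADAM22 family to which LGI proteins bind, had 2.03, 4.05 and 5.41 in Gast mice and 0.00, 0.62 and 1.94 in Int mice, also without overlap (3.35 ± 0.39, adjusted p = 7.1e-07). The lowest calls were Nrxn3, a presynaptic neurexin (-1.14 ± 0.28, adjusted p = 0.0054), and Lrrn1 (-0.76 ± 0.26, adjusted p = 0.05), whose call was lost when any of 16 mice was left out. Counted after their values were seen, 3 of 5 tested SLITRK genes and 2 of 4 tested teneurin genes were called, all higher.

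Adhesion proteins split by member. Among 40 immunoglobulin-family genes 7 were higher and 3 lower (17.5% and 7.5%, median 0.23), and 12 were higher with DESeq2. Among 28 cadherins and protocadherins 8 were higher and 3 lower (28.6% and 10.7%, median 0.25). Over all genes the shares were 9.04% and 5.72%. Contactins went both ways. Cntn4 had 0.80, 2.78 and 6.62 in Gast mice and 0.00, 0.18 and 1.27 in Int mice (3.39 ± 0.37, adjusted p = 2.3e-07), and in the median mouse 47.2% of Gast cells and 0% of Int cells held 10 reads. Cntn5 had 1.74, 3.04 and 4.05 in Gast mice and 2.43, 5.77 and 6.60 in Int mice (-2.55 ± 0.37, adjusted p = 1.5e-05). In Cntn5 the IntD, IntL and IntM mice lay at 5.52 or higher, and 3 of the 4 IntP mice lay within the Gast range at 2.43, 3.12 and 3.28. Kirrel3, a synaptic adhesion protein, was higher (2.30 ± 0.45, adjusted p = 0.0007), and Ncam1, present in all cells of the median mouse of either set, was lower (-0.68 ± 0.13, adjusted p = 0.00045). Cdh18 was higher (2.29 ± 0.33, adjusted p = 1.4e-05) and Pcdh19, a delta-protocadherin, lower, at 0.34, 1.31 and 1.79 in Gast mice and 2.05, 3.70 and 4.99 in Int mice without overlap (-2.23 ± 0.27, adjusted p = 1.4e-06).

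**Figure D2:**
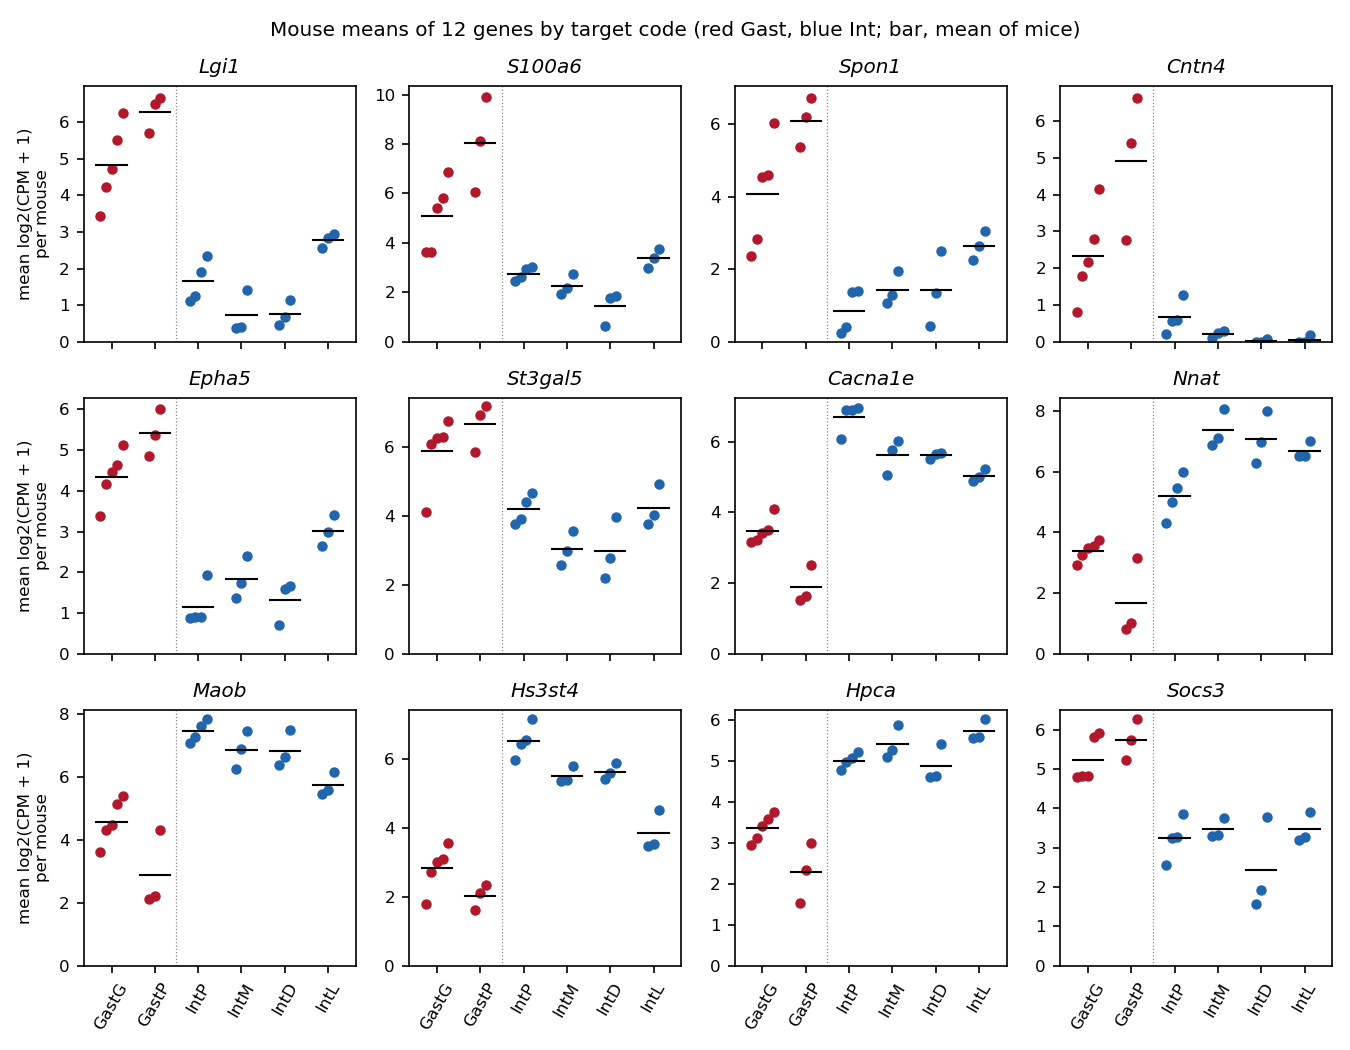
Mean log2(CPM + 1) per mouse (y axis) for 12 genes by target code (x axis), with 1 point per mouse, the Gast codes in red at the left and the Int codes in blue, and a bar at the mean of the mice of a code. In Lgi1 the lowest Gast mouse was at 3.43 and the highest Int mouse at 2.94, and in Cacna1e the highest Gast mouse was at 4.09 and the lowest Int mouse at 4.88.

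Enzymes that build surface sugars and lipids also differed. Of 28 sphingolipid and ganglioside enzymes 7 were higher and 1 lower (25.0% and 3.6%). St3gal5, which makes ganglioside GM3 and so feeds all the larger gangliosides, had 4.12, 6.28 and 7.19 in Gast mice and 2.22, 3.78 and 4.95 in Int mice (2.67 ± 0.34, adjusted p = 2.9e-06). The Gast mice were above the Int range except for the GastG mouse Retro41 at 4.12. St6galnac5, which adds a further sialic acid to gangliosides, had 0.58, 1.99 and 3.74 in Gast mice and 0.00, 0.00 and 0.44 in Int mice, with no overlap (2.09 ± 0.25, adjusted p = 7.3e-07). Counted after their values were seen, 6 of 11 tested sialyltransferases were called, all higher. The single lower member was Smpd3, a neutral sphingomyelinase, at 2.73, 4.31 and 4.53 in Gast mice and 4.55, 4.94 and 5.44 in Int mice, without overlap (-0.88 ± 0.18, adjusted p = 0.00088). The 26 enzymes of heparan and chondroitin sulfate chains gave 6 higher and 5 lower (23.1% and 19.2%, against 9.04% and 5.72% of all genes). A pair of 3-O-sulfotransferases of heparan sulfate moved in opposite directions: Hs3st2 had 1.83, 3.46 and 6.27 in Gast mice and 0.26, 1.58 and 3.13 in Int mice (2.17 ± 0.39, adjusted p = 0.00025), and Hs3st4 had 1.61, 2.54 and 3.55 in Gast mice and 3.48, 5.60 and 7.17 in Int mice (-2.96 ± 0.23, adjusted p = 7.8e-10). Only 1 Gast mouse, at 3.55, lay within the Int range of Hs3st4, beside the 2 lowest Int mice, both IntL. Ndst3, which starts sulfation of heparan chains, was higher (1.52 ± 0.23) and Chst15, which adds a sulfate to chondroitin chains, lower (-1.90 ± 0.26; adjusted p = 2.3e-05 and 1.1e-05).

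Calcium sensors differed in both directions. Of 29 S100 and EF-hand genes 8 were higher and 9 lower (27.6% and 31.0%, against 9.04% and 5.72%). S100a6 had 3.62, 5.95 and 9.88 in Gast mice and 0.66, 2.60 and 3.76 in Int mice (4.08 ± 0.46, adjusted p = 3.2e-07). The 3 GastP mice had 6.06, 8.12 and 9.88, and the highest Int mouse had 3.76. Kcnip3, a subunit of A-type potassium channels that also binds DNA, was higher (2.75 ± 0.28, adjusted p = 1.1e-07). Hpca, which encodes the neuronal calcium sensor hippocalcin, had 1.53, 3.06 and 3.77 in Gast mice and 4.62, 5.22 and 6.04 in Int mice, without overlap (-2.44 ± 0.40, adjusted p = 6.5e-05), and its relative Hpcal1 was lower as well (-1.42 ± 0.18, adjusted p = 3.3e-06). Both called annexins, of 8 tested, were higher, Anxa4 (1.69 ± 0.23) and Anxa11 (1.02 ± 0.16).

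Among 40 G protein subunits and RGS proteins, which switch G proteins off, 4 were higher and 8 lower. Rgs6 had 0.00, 0.91 and 2.36 in Gast mice and 2.38, 4.22 and 5.35 in Int mice, with no overlap (-3.19 ± 0.30, adjusted p = 3.3e-08), and a median of 16.2% of Gast cells and 85.7% of Int cells held 10 reads. Rgs9 was lower too (-2.13 ± 0.34, adjusted p = 6.6e-05), while Rgs10 (1.07 ± 0.25) and Rgs2 (0.86 ± 0.23) were higher. Cyclic nucleotide genes gave 8 higher and 5 lower of 42. Pde11a, a phosphodiesterase of both cAMP and cGMP, had 2.93, 4.48 and 6.49 in Gast mice and 0.92, 1.75 and 5.27 in Int mice (2.52 ± 0.34, adjusted p = 6.7e-06), and Pde9a, which breaks down cGMP, had 0.44, 1.38 and 3.17 in Gast mice and 1.56, 4.21 and 5.49 in Int mice (-2.74 ± 0.32, adjusted p = 7.1e-07). Adcy8, a calcium-stimulated adenylyl cyclase, was lower (-1.54 ± 0.34, adjusted p = 0.0023) and Pde4c higher (1.71 ± 0.25, adjusted p = 2.2e-05). Of 41 kinases and phospholipases of the lipid and calcium pathways 7 were higher and 7 lower (17.1% each). Over all genes 9.04% were higher and 5.72% lower. Camk2g, present in all cells of the median mouse of either set, had 6.72, 7.49 and 7.67 in Gast mice and 5.37, 6.16 and 7.05 in Int mice (1.26 ± 0.13, adjusted p = 8.7e-08), and Dgkb, a diacylglycerol kinase, had 1.48, 2.19 and 3.35 in Gast mice and 3.49, 4.89 and 5.54 in Int mice, without overlap (-2.48 ± 0.25, adjusted p = 1.1e-07).

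Calcium entry genes stood out for 1 member. Cacna1e (chr1:154390806-154884785) had 1.51, 3.18 and 4.09 in Gast mice and 4.88, 5.67 and 6.96 in Int mice (-3.06 ± 0.22, adjusted p = 6.7e-10). No mouse of either set overlapped, and the code means were 3.48 in GastG, 1.89 in GastP, 6.71 in IntP, 5.61 in IntM, 5.61 in IntD and 5.03 in IntL. Cacna1h, a T-type channel that opens near rest, was also lower (-1.54 ± 0.20, adjusted p = 3.5e-06), whereas the auxiliary subunit Cacnb3 (0.93 ± 0.13) and the sodium channel relative Scn7a (1.80 ± 0.28) were higher, among 6 higher and 5 lower of 30 calcium and sodium channel subunits. Ryr3, an intracellular calcium release channel, was lower (-1.87 ± 0.25, adjusted p = 4.8e-06). Potassium, HCN and chloride channel subunits gave 18 higher and 9 lower of 74 (24.3% and 12.2%, against 9.04% and 5.72% of all genes). With edgeR 5 were lower. Kcnab2, an auxiliary subunit of Kv1 channels, had 4.80, 6.82 and 7.41 in Gast mice and 3.11, 4.64 and 5.57 in Int mice (2.35 ± 0.26, adjusted p = 2.2e-07), and Kcnh2, the pore of the channel of the cardiac repolarising current, had 3.32, 3.98 and 4.48 in Gast mice and 4.87, 5.33 and 6.38 in Int mice, without overlap (-1.59 ± 0.33, adjusted p = 0.0012). Kcnmb2 was higher (1.98 ± 0.33) and Kcnt2 lower (-1.54 ± 0.29). Of 31 amino acid receptor subunits 7 were higher and 3 lower (22.6% and 9.7%). The kainate receptor gene Grik1 led them, with all Gast mice above the Int mice (1.98 ± 0.26, adjusted p = 3.3e-06). Gria2, the AMPA receptor subunit that blocks calcium flow, was lower (-1.24 ± 0.29, adjusted p = 0.0034).

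Enzymes of the catecholamines moved apart. Th, the first step of their synthesis, had 4.75, 6.71 and 7.80 in Gast mice and 1.20, 3.48 and 6.36 in Int mice (2.61 ± 0.52, adjusted p = 0.00076), although with TMM scaling its adjusted p was 0.074. Dbh, which turns dopamine into noradrenaline, was lower (-1.72 ± 0.35, adjusted p = 0.00086). Maob, which breaks monoamines down, had 2.12, 4.30 and 5.39 in Gast mice and 5.45, 6.88 and 7.83 in Int mice, with no overlap by a narrow margin (-2.98 ± 0.30, adjusted p = 1.0e-07). The list gave 1 higher and 5 lower of 20 (5.0% and 25.0%, against 9.04% and 5.72% of all genes). Slc6a2, the noradrenaline transporter, and Hand1 were not tested for lack of reads, so 2 of the 4 sympathetic markers were measured, with a median summed CPM of 359.0 in Gast mice and 277.0 in Int mice. Of 22 tested peptide and secreted signal genes 4 were higher and 2 lower (18.2% and 9.1%). With TMM scaling the counts were 7 and 1, with edgeR 10 and 0 and with DESeq2 11 and 0. C1ql3, a secreted synaptic protein, was higher (2.14 ± 0.43, adjusted p = 0.0009), and Edn3, an endothelin, was lower (-1.54 ± 0.37, adjusted p = 0.0042). Release genes gave 6 higher and 3 lower of 41 (14.6% and 7.3%). The vesicle-priming gene Unc13c was higher (2.42 ± 0.36, adjusted p = 2.6e-05) and the synapsin gene Syn3 lower (-1.22 ± 0.18, adjusted p = 1.6e-05). Synaptotagmins, calcium sensors of fusion, gave 4 higher and 3 lower of 16 (25.0% and 18.8%), led by Syt3 (2.10 ± 0.34, adjusted p = 5.9e-05).

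Transcription factors of neuron identity differed. Runx1t1, a corepressor, had 4.28, 5.03 and 6.30 in Gast mice and 1.02, 3.30 and 4.34 in Int mice (2.39 ± 0.25, adjusted p = 1.1e-07). Klf5 was higher (1.91 ± 0.29, adjusted p = 3.4e-05), and Tbx3, a T-box factor, had 3.90, 5.48 and 6.89 in Gast mice and 6.76, 7.63 and 8.05 in Int mice (-2.34 ± 0.23, adjusted p = 6.7e-08), a difference of 0.00197 with matched cluster as a term. Esr1, the estrogen receptor, was lower (-1.50 ± 0.25, adjusted p = 8.4e-05). These belong to 66 tested factors, of which 13 were higher and 5 lower (19.7% and 7.6%, against 9.04% and 5.72% of all genes). Pou4f1, a POU factor of sensory neurons, was higher (1.20 ± 0.28, adjusted p = 0.0032) and Cux2 lower (-1.25 ± 0.19, adjusted p = 2.4e-05). Of 35 homeobox and POU genes 6 were higher and 3 lower (17.1% and 8.6%), and with TMM scaling 1 was higher and 4 lower. The paralogue genes Eya1 and Eya2 went opposite ways, at 1.30 ± 0.33 and -1.01 ± 0.19, though with TMM scaling the adjusted p of Eya1 was 0.18. Of the 8 tested HOX genes, which mark position along the body axis, the anterior Hoxd1 (1.07 ± 0.18) was higher, and Hoxb6 (-1.01 ± 0.25), Hoxc4 (-0.97 ± 0.22) and Hoxb5 (-0.64), the last named after its value was seen, were lower. Hoxd1 was sparse, with 10 reads in a median of 23.6% of Gast cells and 0% of Int cells. Smad1, a mediator of BMP signals, had 5.89, 6.29 and 6.89 in Gast mice and 3.72, 4.38 and 5.68 in Int mice, without overlap (1.84 ± 0.27, adjusted p = 1.8e-05).

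Nnat had 0.82, 3.20 and 3.73 in Gast mice and 4.29, 6.51 and 8.07 in Int mice, and no mice overlapped (-4.05 ± 0.31, adjusted p = 7.8e-10). Its code means were 3.38 in GastG, 1.67 in GastP, 5.19 in IntP, 7.36 in IntM, 7.08 in IntD and 6.67 in IntL, so IntP came nearest to Gast. Of the other 21 tested imprinted genes 2 were higher and 2 lower, with a median of 0.11. Over all genes 9.04% were higher and 5.72% lower. Grb10, which dampens insulin receptor signalling, was lower (-0.81 ± 0.23, adjusted p = 0.018), and its neighbour Cobl was higher (1.03 ± 0.24, adjusted p = 0.003), but with TMM scaling their adjusted p were 0.15 and 0.14.

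Most genes of mitochondrial energy supply had small negative differences. Of 40 nuclear-encoded subunits of oxidative phosphorylation 6 were called, all lower, and 39 of the 40 differences were negative, with a median of -0.16 against 0.07 for all genes. With TMM scaling 22 were lower (median -0.26), with edgeR's quasi-likelihood test 20 (median -0.25), and with only the mice numbered 39 or lower 2 (median -0.02, beside 0.11 for all genes). Cycs, cytochrome c, had 8.98, 9.33 and 9.56 in Gast mice and 9.43, 9.71 and 10.07 in Int mice (-0.45 ± 0.09, adjusted p = 0.00064), and Ndufb5, a complex I subunit, was lower by a similar amount (-0.43 ± 0.10, adjusted p = 0.0048). Both were in all cells of the median mouse of either set, so these are small shifts of level. The tricarboxylic acid cycle had a median of -0.15 and 1 call of 23 (8 lower with TMM scaling and with edgeR, 9 with DESeq2), Idh3g (-0.25 ± 0.09, adjusted p = 0.043), which was lost when any of 14 mice was left out. In glycolysis 2 of 23 genes were higher, Eno2 (0.35 ± 0.08) and Pkm (0.25 ± 0.06, adjusted p = 0.065 with TMM scaling), and 3 lower, among them Pfkp (-0.55 ± 0.09) and Pgam1 (-0.32 ± 0.05). In fat oxidation Acadm (-0.68 ± 0.14) and Hadhb (-0.42 ± 0.08) were lower and Acsl1, which activates fatty acids, was higher (0.68 ± 0.14). Cholesterol synthesis had 0 of 26 genes called by limma, with 5 at an unadjusted p under 0.05 and 2 called by edgeR and by DESeq2. The proteasome had 0 of 34 called by limma, with 3 at an unadjusted p under 0.05, 3 called by edgeR and 4 by DESeq2. The cytosolic ribosome had 0 of 56 called by limma and by edgeR, with 1 at an unadjusted p under 0.05 and 1 called by DESeq2.

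**Figure D3:**
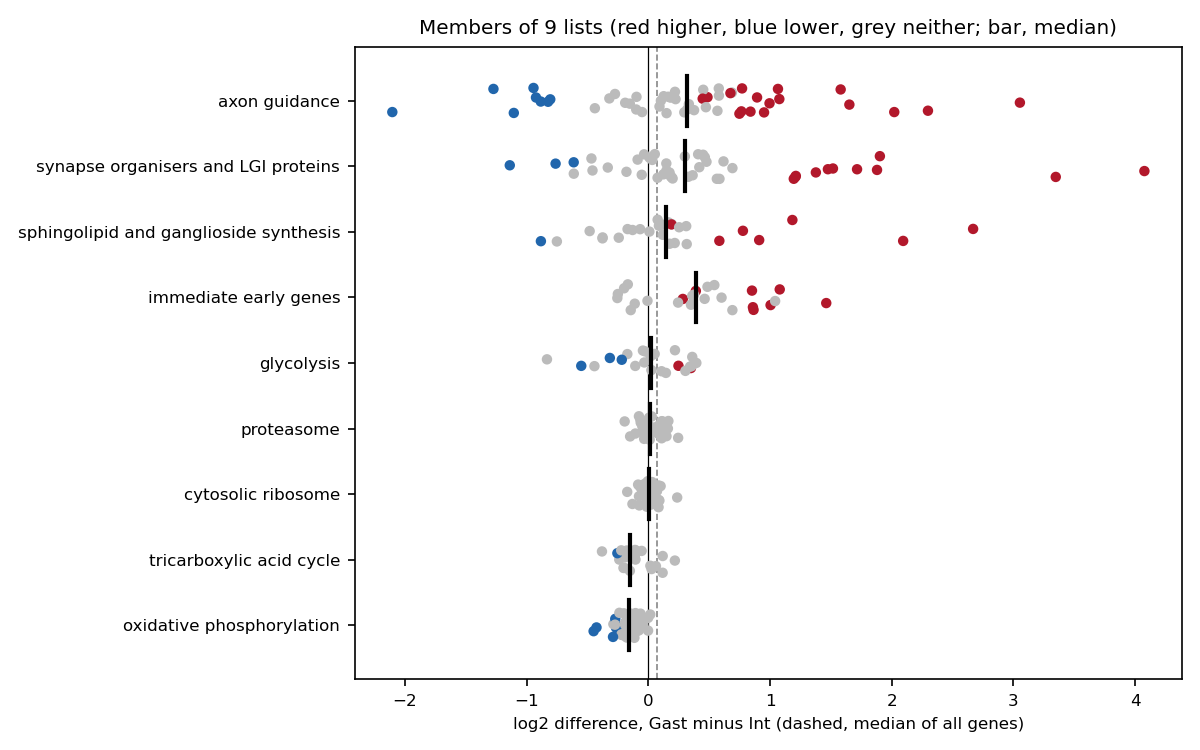
Log2 difference, Gast minus Int (x axis), of every tested member of 9 gene lists, with 1 point per gene in red where called higher, blue where called lower and grey otherwise, a bar at the median of the list and a dashed line at the median of all genes, 0.07. Oxidative phosphorylation lies left of 0 in 39 of 40 genes, and axon guidance has called genes on both sides of 0.

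Called structural genes were more often higher than lower, and so were called genes at large, of which 61.3% were higher. The 40 neurofilament and microtubule genes gave 7 higher and 1 lower (17.5% and 2.5%, against 9.04% and 5.72% of all genes). Their median was 0.02, against 0.07 for all genes. With TMM scaling 6 were higher and 3 lower (median -0.04). At the top were Vim, an intermediate filament (1.52 ± 0.30, adjusted p = 0.00061), and Stmn1, which destabilises microtubules (0.92 ± 0.20, adjusted p = 0.0021). The 61 actin genes gave 11 higher and 3 lower (18.0% and 4.9%), with Actn1, an actin crosslinker, at 1.05 ± 0.21 (adjusted p = 0.00064). Of 48 matrix genes 7 were higher (14.6%, and 11 genes with DESeq2) and 1 lower (2.1%). Spon1, the secreted axon guidance protein F-spondin, had 2.37, 4.97 and 6.72 in Gast mice and 0.24, 1.37 and 3.05 in Int mice (3.49 ± 0.40, adjusted p = 5.6e-07), and Igfbp2, an IGF carrier, was higher (2.33 ± 0.34, adjusted p = 2.0e-05). The tetraspanins Cd81 and Cd9 were lower. Cd81 had 3.15, 6.16 and 7.18 in Gast mice and 7.54, 7.90 and 8.22 in Int mice, without overlap (-2.52 ± 0.31, adjusted p = 1.8e-06), and Cd9 differed by -1.78 ± 0.35 (adjusted p = 0.00056).

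Immediate early genes, which dissociation itself can induce, gave 8 calls of 25, all higher (32.0%, median 0.39). Jun differed by 1.46 ± 0.33 (adjusted p = 0.0024) and Btg2 by 1.08 ± 0.25 (adjusted p = 0.0028). Without the GastP mouse Retro44, 5 of the 25 were higher, and with TMM scaling 3. Nerve injury genes gave 4 calls of 26, all higher (15.4%, against 9.04% of all genes higher, with a median of 0.51). With edgeR 11 and with DESeq2 13 were higher and 0 lower, and with the mice numbered 39 or lower 4 were higher and 2 lower (median 0.22). Socs3, an inhibitor of cytokine signals, had 4.79, 5.49 and 6.28 in Gast mice and 1.57, 3.28 and 3.92 in Int mice, without overlap (2.35 ± 0.35, adjusted p = 2.1e-05). Atf3, the standard marker of axon damage, had a median of 6.12 in Gast mice and 4.81 in Int mice and was not called (1.04, adjusted p = 0.29), and Gap43 had 9.21 and 9.45 (-0.20, adjusted p = 0.48). The part of dissociation or labelling in these differences was not tested.

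**Figure D4:**
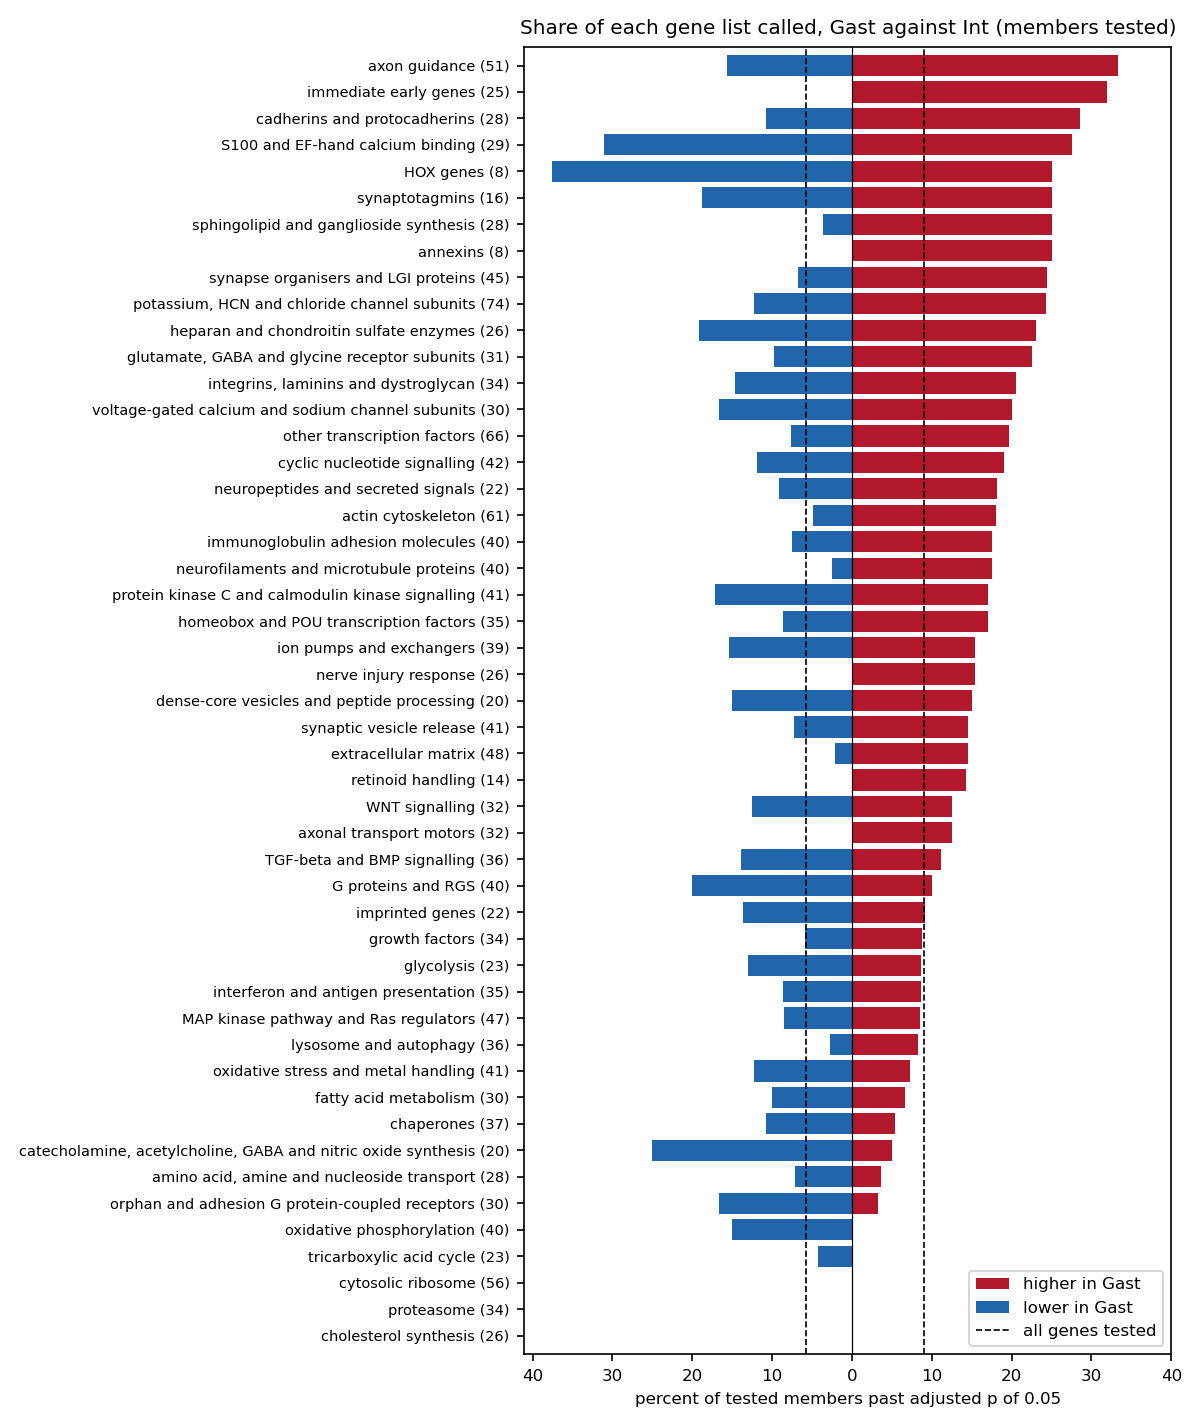
Percent of the tested members of each of 49 gene lists called higher in Gast cells (red, right of 0) or lower (blue, left of 0), with the number tested in brackets and dashed lines at the share over all genes, 9.04% higher and 5.72% lower. Axon guidance had 33.3% higher, S100 and EF-hand genes 31.0% lower, and the ribosome, the proteasome and cholesterol synthesis had no call.

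Outside the lists, Klhdc8a led the genes that were higher in Gast cells, at 3.83, 6.56 and 8.24 in Gast mice and 0.61, 3.22 and 5.38 in Int mice (4.05 ± 0.43, adjusted p = 1.5e-07). Steap3, a reductase of iron uptake, had 7.76, 8.29 and 8.67 in Gast mice and 3.81, 5.91 and 6.99 in Int mice, without overlap (2.67 ± 0.27, adjusted p = 1.1e-07), while Fth1, ferritin heavy chain, was lower in every Gast mouse than in any Int mouse (-0.48 ± 0.11, adjusted p = 0.0029). Gcnt2, which branches surface glycans, was in all cells of the median mouse of either set and had 7.54, 8.32 and 8.99 in Gast mice and 5.24, 6.05 and 6.76 in Int mice, without overlap (2.29 ± 0.22, adjusted p = 5.5e-08). Cyp1b1, a cytochrome P450 (2.94 ± 0.32), and Dok4, an adaptor of receptor tyrosine kinases (2.23 ± 0.28), were higher as well. Among the lowest, Tmem54 had 1.70, 2.58 and 4.69 in Gast mice and 5.42, 7.22 and 7.88 in Int mice, without overlap (-4.36 ± 0.38, adjusted p = 5.9e-09). Nsg1, which sorts receptors in endosomes (-3.37 ± 0.49), Bcl2, an inhibitor of cell death (-3.00 ± 0.34), and Ak5, an adenylate kinase of neurons (-2.97 ± 0.36), were lower. Ldb2, a cofactor of LIM-homeodomain proteins and a leading gene of the Gpr65-led cluster, had 4.75, 5.66 and 6.30 in Gast mice and 6.86, 7.84 and 8.83 in Int mice, without overlap (-2.33 ± 0.27, adjusted p = 6.5e-07).

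Taking matched type into account left few calls. Without the cells that matched the Sst-led and Gpr65-led clusters, 224 genes (1.76%) were higher and 219 (1.73%) lower, and 1837 of the 1874 genes kept their sign. The fit with matched cluster as a term used 85 means of a mouse and cluster, with single cells left out. Of these means 21 were of Gast mice and 35 of Int mice, and the others were of Port mice. Of 15 clusters 7 held both sets. With the term 9 genes (0.0709%) were higher and 4 (0.0315%) lower, and 1687 of the 1874 kept their sign. The median size of the 1874 differences was 0.30 with cluster as a term and 0.68 without. That fit had means of fewer cells, and its part in the smaller number of calls was not tested. The clusters were matched on 664 genes, among them 130 of the genes called higher and 103 of those called lower, so for those genes the term takes up their own values.

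The 13 genes called with cluster as a term included, higher in Gast cells, Gfra1, Mdfic, Cntn4, Phf11b, Nr2f2, St6galnac5, Sema3f, Clk1 and Vwa5a, and, lower, Ryr3, Cacna1e and Maob. Cacna1e differed by -1.86 with the term (adjusted p = 0.0019) and by -3.06 ± 0.22 without it, and Maob (chrX:16709281-16817366) by -2.49 (adjusted p = 0.0074) and -2.98 ± 0.30. Cntn4 differed by 2.02 with the term (adjusted p = 0.0035) and Mdfic, an inhibitor of MyoD-family factors, by 2.06 (adjusted p = 0.0035). Gfra1, the GDNF receptor subunit, had 4.88, 5.69 and 7.94 in Gast mice and 0.68, 2.47 and 6.05 in Int mice, with 1 Int mouse, an IntP mouse, inside the Gast range, and differed by 2.13 with the term (adjusted p = 0.022). Vwa5a was the most even of them, in all cells of the median mouse of either set, at 7.85, 8.21 and 8.60 in Gast mice and 6.98, 7.33 and 7.77 in Int mice, without overlap. It differed by 0.91 ± 0.10 over mouse means and 0.78 with the term. Sema3f differed by 1.16 with the term and 2.30 ± 0.21 without it, and St6galnac5 by 1.24 and 2.09 ± 0.25. Nr2f2, a nuclear receptor also known as COUP-TFII, hardly changed between the fits, with 1.50 over mouse means and 1.49 with the term. Of these 13 genes 5 were among those used for matching, namely Cntn4, Gfra1, Mdfic, Phf11b and St6galnac5.

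The genes that led the lists mostly lost their calls with cluster as a term. Of the 191 genes named by rule 7 were still called, 172 had the same sign without a call and 12 changed sign. Lgi1 differed by 1.67 with the term (adjusted p = 0.064), Epha5 by 1.49 (adjusted p = 0.062) and S100a6 by 1.59 (adjusted p = 0.38). Among the genes lower in Gast cells over mouse means, Nnat differed by -1.71 (adjusted p = 0.26), Rgs6 by -1.32 (adjusted p = 0.27) and Hs3st4 by -0.61 (adjusted p = 0.59). Spon1 (0.67), St3gal5 (0.90), Klhdc8a (1.11), Socs3 (1.22), Hpca (-1.31) and Tmem54 (-1.55) kept their sign and were not called with the term. Epha5, S100a6, Nnat, Hs3st4, Spon1, Klhdc8a, Socs3 and Tmem54 were among the genes used for matching. For these genes the term takes up their own values, so their lost calls do not separate type from set.

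**Figure D5:**
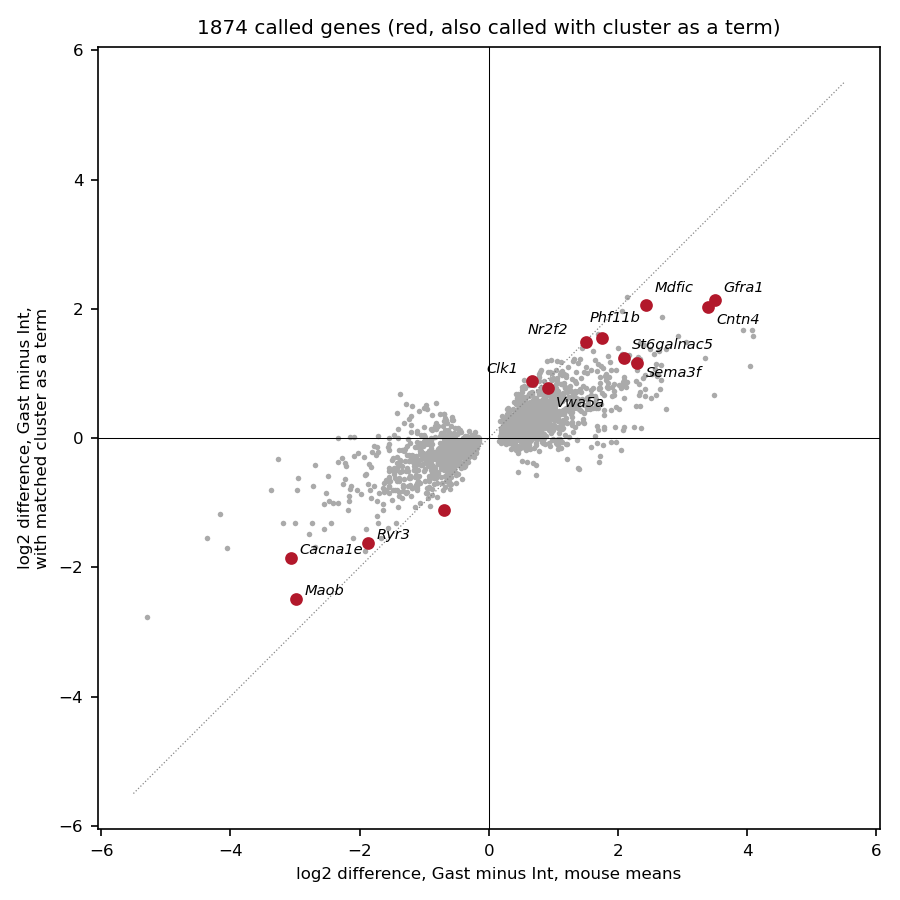
Log2 difference, Gast minus Int, of the 1874 called genes from mouse means (x axis) and with matched droplet cluster as a term (y axis), with 1 point per gene, the 13 genes called in both fits in red and a dotted line where both are equal. Most genes lie nearer 0 on the y axis, with a median size of 0.30 against 0.68 on the x axis.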

How the data were processed

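The deposited table of picked cells holds log2 values of reads per gene and cell, made by the authors and not scaled to depth, with its floor standing for 0 reads. The sources used here name no aligner for it. Taken back to reads, 93.3% of values up to 100 reads were whole within 0.01, and rows of the same symbol were summed (36920 rows to 36875 symbols). Of its cell columns 1 matched no sample and was left out, and 53 cells coded na entered no comparison. The deposited droplet matrix holds counts (UMIs), made with Cell Ranger 2.0.1 on mm10, per the submitters' processing notes; the gene list deposited with it holds names only (unit other).

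Mouse means of log2(CPM + 1) over 4 or more cells entered 1 limma 3.58.1 fit with an intensity trend over 7 codes (R 4.3.3), restricted to genes that reached 10 reads in 5% or more of the cells, with 1 estimate of spread, and the contrast weighed codes equally within a set. Summed reads per mouse were also tested with edgeR 4.0.16, which called 1063 genes higher and 836 lower, and DESeq2 1.42.0. Droplet cells were clustered in scanpy 1.11.5 with leidenalg 0.10.2 (28 clusters of 1087 barcodes), and picked cells went to the cluster of highest Spearman correlation over 664 genes. Fits were tested on simulated data. Promoter windows, positions and gene names came from RefSeq tables on GRCm38.p6, and promoters on a chromosome that is not reported here were left out.

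Genes were named by a rule: the 2 highest and 2 lowest called members of each of 49 lists, and outside the lists the 15 highest and 15 lowest called genes with a mean of 3 or more. Some genes that it names are not reported here. Members named beyond it were chosen after their values were seen. The members and lists were chosen with earlier results of these data known. Mice are taken as replicates from the header of the table, which does not say how they were handled.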

Additional observations from a re-analysis of the deposited data

Results flagged for a closer look

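Among 190 of the genes named by rule, 11 had 1 Gast mouse far from the other 7 (Dixon's criterion), close to the 1 in 20 that chance gives. The GastG mouse Retro41 stood apart in 5 genes, with 4.12 in St3gal5, 1.18 in Kcnip3, 3.17 in Pde9a, 7.05 in Cacnb3 and 4.16 in Zdhhc22, where the nearest other Gast mice had 5.87, 3.10, 1.70, 7.54 and 5.76. In each of these it lay on the side of the Int mice. The GastP mouse Retro10 stood apart in 3 genes, with 2.73 in Smpd3, 6.95 in Pou4f1 and 4.11 in Gpr176. The GastG mouse Retro8 had 8.35 in Hpcal1 and 3.37 in Dbh, and the GastG mouse Retro7 had 3.10 in Anxa4. The calls of these 11 genes held when any single mouse was left out.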

How the results depend on the processing

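All 1874 genes called from mouse means kept their sign when any Gast or Int code or any mouse was left out. They also did so with TMM scaling and with pseudocount 10. With edgeR, DESeq2 and thinned cells 1871 did. Leaving out the Port mice or changing the filter could not change a sign. Each code has its own mean in the fit, and CPM was scaled before the filter. The counts of higher and lower genes moved by over 1.5 times as follows: 670 higher and 483 lower with cells thinned to 100000 reads, 686 and 429 without GastG, 584 and 398 without GastP, 727 higher without IntD, 224 and 219 without cells of the Sst-led and Gpr65-led clusters, and 9 and 4 with cluster as a term. Leaving out each mouse gave 838 to 1228 higher and 542 to 764 lower, the lowest of both without the GastP mouse Retro9 (838 and 542). Beside these, edgeR called 1063 and 836, and DESeq2 1229 and 960. Of the 191 named genes 26 lost their call without some mouse, 30 with TMM scaling, 34 with edgeR and 100 without the cells of those clusters. With cluster as a term 12 changed sign, all uncalled there: Idh3g (0.046), Syt2 (0.23), Edn3 (0.000429), Camk2b (-0.074), Rasgrf1 (-0.478), Cd82 (-0.0802), Hoxd1 (-0.111), Tbx3 (0.00197), Fstl4 (-0.0259), Rspo2 (-0.10), Btg2 (-0.171) and Dbh (0.0287); the cause was not tested. With mice numbered 39 or lower 1440 were higher and 635 lower, but there too every Gast mouse has a lower number than any Int mouse, and no fit of mice above 39 was possible, since none is Int. No paired analysis was possible because no mouse carried both sets of codes. Depth limits genes with few reads: the filter kept 12693 genes, against 18496 tested with no filter.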

Other observations

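Single ion carriers and secreted factors also differed, in lists whose counts stood beside 9.04% higher and 5.72% lower over all genes. Slc24a2, a potassium-dependent sodium-calcium exchanger, had 2.08, 3.68 and 4.50 in the lowest, median and highest Gast mouse and 0.37, 1.16 and 2.17 in the Int mice (2.49 ± 0.27, adjusted p = 2.3e-07), among 6 higher and 6 lower (15.4% each; 3 lower with edgeR) of 39 ion pumps and exchangers, and Slc12a7, a potassium-chloride cotransporter, was lower (-2.02 ± 0.35, adjusted p = 0.00017). Csf1, which recruits macrophages, was higher (1.85 ± 0.36, adjusted p = 0.00056), as was Hgf (1.52 ± 0.33, adjusted p = 0.0018), while Fgf9 was lower (-0.75 ± 0.21, adjusted p = 0.017), among 3 higher and 2 lower (8.8% and 5.9%, close to all genes; 7 and 1 with edgeR) of 34 growth factors. In WNT signalling, with 4 higher and 4 lower of 32 (12.5% each), Rspo2, an enhancer of the pathway, was higher (1.77 ± 0.37, adjusted p = 0.0011) and Dkk3 lower (-1.12 ± 0.34, adjusted p = 0.026). Interferon and antigen presentation genes gave 3 higher and 3 lower of 35 (8.6% each). The antiviral gene Oas1a had 2.25, 4.07 and 4.34 in Gast mice and 3.81, 5.65 and 6.41 in Int mice (-1.72 ± 0.30, adjusted p = 0.00015), and Irf1 was higher (0.82 ± 0.27, adjusted p = 0.039). Both called retinoid genes of 14 (5 with edgeR) were higher, Aldh1a3, an enzyme that makes retinoic acid (0.71 ± 0.19), and the receptor gene Rarg (0.59 ± 0.19; adjusted p = 0.0096 and 0.035). The table has a row for enhanced green fluorescent protein, and 0 of 105 Gast cells and 0 of 169 Int cells had 10 reads of it.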
